A study of Homo sapiens with 11 samples.

Results

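In 92-1 cells, a line grown from a melanoma of the uvea of the eye, 14692 of 68093 H3K27ac peaks found after 4 h of DMSO shared no base with any DMSO peak of SMARCA4 (BRG1), SOX10, MITF or AP-2. These acetylated sites without SMARCA4 or factor peaks were 21.6% of the list (95% Wilson interval 21.3% to 21.9%). They were chosen by the overlap of DMSO peak positions alone, so that the lack of a DMSO factor peak is not a result. The cells had received either DMSO, the solvent, or FHT-1015, an inhibitor of the remodelling ATPases SMARCA4 and SMARCA2, for the same 4 h. Chromatin was fixed with formaldehyde, sonicated, precipitated with 1 of 5 antibodies and sequenced, and the antibody against AP-2 is given in the labels as one against TFAP2A. Each antibody had 1 library per condition, with no replicates, so no test was possible. The intervals below cover counting error over peaks of these lists and not variation between cultures. They treat peaks as independent, which neighbouring peaks are not, so they may be too narrow. "Retained" means that an FHT-1015 H3K27ac peak shared at least 1 bp with the DMSO peak, and "lost" means that none did.

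Acetylation of histone H3 at lysine 27 is laid down by the acetyltransferases CBP and p300 and marks active enhancers and promoters. SMARCA4 is the motor of BAF complexes, which slide and evict nucleosomes so that transcription factors can reach DNA. SOX10 and MITF are factors of the pigment cell lineage, and AP-2 factors act in neural crest and its descendants. The nucleosomes on either side of a bound site often carry the mark.

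The 4 lists used to choose the peaks leave a group at the weak end of the H3K27ac list. The median width was 276 bp, with a lowest of 203 bp and a highest of 2587 bp, against 701 bp for the 53401 acetylated peaks that met SMARCA4 or a factor. A wide peak has more bases that can meet a factor peak, so these values describe the choice and are not tests. The median fold over background, the authors' value, was 3.09 against 5.30, and the median −log10 p was 4.63 against 14.1. The tallest point of a peak held a median of 13 reads, from 6 to 151, against 29 reads. Peaks without factors made up 51.5% of the weakest decile of the H3K27ac list and 0.0441% of the strongest decile. Together they covered 7.19% of all acetylated bases. Still, 89.9% of them had a q-value under 0.05, against 97.3% of the other acetylated peaks. Just inside the rule, 925 peaks lay at most 50 bp from a factor peak, with a median width of 282 bp and a median −log10 p of 4.73. Just outside it, 1178 acetylated peaks overlapped factor peaks by at most 50 bp, with a median width of 287 bp and a median −log10 p of 4.89. The 2 sides of the threshold were therefore alike in width and strength, and 29.6% and 29.7% of them were retained.

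The sequences shown first are promoters whose transcription start lay under an acetylated peak without SMARCA4 or factors, since the acetylation there marks a known start. Of 35 such starts, the 6 under the strongest peaks are given as the 130 bases before the start, 5′ to 3′ on the gene's strand, from the RefSeq annotation of GRCh38.p14. Capitals mark matches on either strand to motifs of E-box proteins (CACGTG or CATGTG), SOX (ACAAAG or ACAATG), AP-2 (GCCNNNGGC), SP and KLF (GGGCGG), NFY (CCAAT), NRF1 (its palindrome), ETS (CCGGAAG), CRE (TGACGTCA) and AP-1 (TGANTCA). Matches may overlap one another. CCDC12 encodes a protein found in spliceosomes (chr3:46976502-46976631, minus strand). IFIT1 is an interferon-induced antiviral protein (chr10:89392493-89392622, plus strand). STPG2 is a protein with sperm-tail repeats (chr4:98143477-98143606, minus strand), and GATD3 lies at chr21:44133553-44133682 on the plus strand. ENTPD1 is CD39, which breaks down extracellular ATP (chr10:95741904-95742033, plus strand), and TTF2 releases transcripts from RNA polymerase II (chr1:117060196-117060325, plus strand).
CCDC12: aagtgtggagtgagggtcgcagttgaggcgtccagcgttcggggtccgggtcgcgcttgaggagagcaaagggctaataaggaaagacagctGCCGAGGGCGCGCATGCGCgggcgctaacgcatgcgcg
IFIT1: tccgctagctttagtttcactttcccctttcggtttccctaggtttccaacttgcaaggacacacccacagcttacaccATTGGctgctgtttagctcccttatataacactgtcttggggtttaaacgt
STPG2: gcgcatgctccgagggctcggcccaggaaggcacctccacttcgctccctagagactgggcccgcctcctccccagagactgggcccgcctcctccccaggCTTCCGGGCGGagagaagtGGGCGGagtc
GATD3: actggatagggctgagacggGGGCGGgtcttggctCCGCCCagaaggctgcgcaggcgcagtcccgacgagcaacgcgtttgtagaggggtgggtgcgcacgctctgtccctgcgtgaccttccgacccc
ENTPD1: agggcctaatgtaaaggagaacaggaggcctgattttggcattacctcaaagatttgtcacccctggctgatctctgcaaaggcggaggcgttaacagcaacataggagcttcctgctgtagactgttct
TTF2: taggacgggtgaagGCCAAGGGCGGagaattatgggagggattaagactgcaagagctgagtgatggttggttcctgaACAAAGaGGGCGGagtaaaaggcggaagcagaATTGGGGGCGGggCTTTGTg

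For contrast, chosen after the data were seen, the promoters of 2 pigment genes whose starts lay under acetylated peaks that did carry factors are printed in the same way. TYR is tyrosinase, the first enzyme of melanin synthesis (chr11:89177745-89177874, plus strand), and TYRP1 is a related melanosome enzyme (chr9:12693255-12693384, plus strand). Both hold the E-box CATGTG, or its reverse complement, which MITF is known to bind.
TYR: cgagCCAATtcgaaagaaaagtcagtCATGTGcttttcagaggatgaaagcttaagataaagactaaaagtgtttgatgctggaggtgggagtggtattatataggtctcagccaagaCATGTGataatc
TYRP1: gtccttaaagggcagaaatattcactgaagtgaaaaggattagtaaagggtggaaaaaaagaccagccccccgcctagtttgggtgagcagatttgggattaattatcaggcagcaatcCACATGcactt

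The printed windows were chosen by the start, and the peak did not always cover the bases before it. The windows of CCDC12, IFIT1 and ENTPD1 lay within their peaks. Those of STPG2 (peak end 98143494), GATD3 (peak start 44133646) and TTF2 (peak start 117060303) lay mostly outside. No E-box stood in the 6 printed windows of starts under peaks without factors. GGGCGG, the motif of SP and KLF factors, occurred 2 times each in STPG2 and GATD3 and 3 times in TTF2. Over windows of 300 bases, from 250 before to 50 after the start, GGGCGG was present in 37.1% of the 35 promoters (23.2% to 53.7%). It was present in 69.6% of 9707 promoters whose start lay under another acetylated peak and in 56.3% of all 22199 promoters of the table. The AP-2 motif was in 11.4% of the 35 windows (4.54% to 26%), in 30.4% under other acetylated peaks and in 27.3% of all promoters. The SOX motif was in 25.7% (14.2% to 42.1%), against 15.9% and 20.2%. An E-box was in 11.4% (4.54% to 26%), against 16.5% under other acetylated peaks and 16.5% of all promoters. For NFY the shares were 28.6%, 35.5% and 34.7%, for ETS 14.3%, 21.7% and 12.8%, for AP-1 14.3%, 4.47% and 6.15%, for NRF1 2.86%, 2.54% and 1.5%. CRE was in 0 of 35 windows (upper bound 9.89%), in 3.43% under other acetylated peaks and in 2.26% of all. The 35 windows had a median of 5 CpG and a GC content of 55.7%, ranging from 37.0% to 76%, against 26 CpG and 65% under other acetylated peaks. A match is a string of letters and not a bound site.

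These sites lay away from transcription starts. Of the 14168 acetylated peaks without factors on chromosomes that the promoter table covers, 35 covered a protein-coding start, which is 0.247% (0.178% to 0.343%). Among the other acetylated peaks, 7246 of 50877 did, which is 14.2%. The midpoint lay within 1 kb of a start for 4.15% of peaks without factors (3.83% to 4.49%) and for 22.1% of the others. In the next zone, from 1 to 10 kb, the order turned: 24.7% of peaks without factors (24% to 25.4%) lay there, against 14.3% of the others. Peaks without factors were 4.18% of the acetylated peaks in the first 1 kb downstream of a start and 6.13% in the 1 kb upstream. Between 1 and 2.5 kb they were 32.2% downstream and 37.6% upstream. Peaks that met a single kind of DMSO peak were also compared. From 1 to 10 kb lay 26.4% of those with SMARCA4 alone, 23.6% with AP-2 alone, 18.6% with MITF alone and 16.9% with SOX10 alone. Within 1 kb the shares were 7.96%, 12.5%, 3.29% and 16.4%, in the same order. Peaks without factors thus formed shoulders on both sides of starts, around a centre held by acetylated peaks with factors. A wide peak covers a start more easily and is more often left out by the rule. Placement was not matched on width, so these shares describe the choice and are not tests. The placement was not particular to them, since SMARCA4 alone and AP-2 alone had like shares from 1 to 10 kb.

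**Figure D1:**
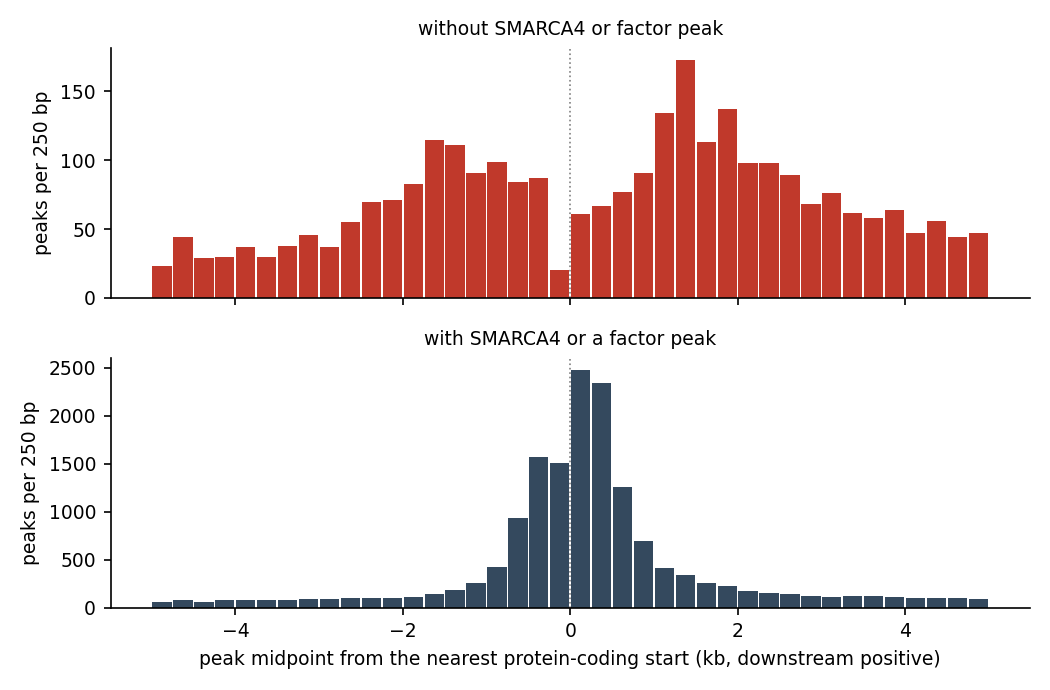
Number of DMSO H3K27ac peaks per 250 bp (vertical axes, which differ in scale) by the distance of the peak midpoint from the nearest protein-coding start in kb, downstream positive, for peaks without (upper panel) and with (lower panel) a SMARCA4 or factor peak. Peaks with factors pile up at the start, and those without are few there and most frequent between 1 and 2 kb on either side.

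Gene boundaries gave the same order, again without matching on width. Within 1 kb of either end of a protein-coding gene lay 1161 peaks without factors, which is 7.90% (7.48% to 8.35%), against 26.8% of the other acetylated peaks. With a single kind of DMSO peak the shares were 6.27% (MITF alone), 10.6% (SMARCA4 alone), 18.4% (AP-2 alone) and 21.4% (SOX10 alone). The boundaries were moved by 20 kb as a check of the build. At a moved boundary lay 5.41% of peaks without factors and 6.80% of all other acetylated peaks. The median distance to a coding gene boundary was 20162 bp without factors and 15690.5 bp with them. Most sites lay within gene bodies: 68.2% of peaks without factors overlapped a protein-coding gene, against 62.9% of the others. A further 8.62% lay in long noncoding RNA genes alone and 22.1% outside any gene, against 10.6% and 25.4%. Exons, introns and untranslated regions were not analysed here.

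Although they carried no factor peak, these sites were seldom far from one. The median gap to the nearest SMARCA4, SOX10, MITF or AP-2 peak was 535 bp, with quartiles of 216 bp and 1149 bp. A factor peak lay within 1 kb of 71.0% of them, within 2.5 kb of 91.0% and within 10 kb of 98.5%. The nearest was a SMARCA4 peak for 30.8%, an AP-2 peak for 27.3%, a SOX10 peak for 23.3% and an MITF peak for 19.1%. Taken by factor, the median gap was 1060 bp to SMARCA4, 1066 bp to SOX10, 1135 bp to AP-2 and 1486 bp to MITF. Lists differ in length and depth, so this order does not rank the factors.

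They also sat beside other acetylation. Another DMSO H3K27ac peak lay within 1 kb of 78.0% of peaks without factors (77.3% to 78.6%), against 62.7% of the other acetylated peaks. Within 5 kb the shares were 89.7% and 71.7%. This was not particular to peaks without factors, since peaks with SMARCA4 alone had 82.1% within 1 kb and 90.3% within 5 kb. Within 1 kb the shares were lower with AP-2 alone (68.5%), SOX10 alone (64.4%) and MITF alone (60.3%). For peaks without factors, the median distance to the nearest other H3K27ac peak was 295 bp. The median −log10 p of that neighbour was 15.3, well above the 4.63 of the peaks themselves. In the broad H3K27ac list, which joins nearby signal into domains, 51.4% of peaks without factors shared a domain with peaks that had factors. Another 43.3% (6369 peaks) were the sole narrow peak of their domain. Of 53087 domains, 6190 held both kinds of peak, 6729 held peaks without factors alone and 34759 held peaks with factors alone.

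Retention after FHT-1015 was the readout that the choice of these sites did not use. Of all DMSO H3K27ac peaks, 59.3% were retained and 40.7% were lost. Of those without SMARCA4 or factor peaks, 4018 were retained, which is 27.3% (26.6% to 28.1%), and 10674 were lost. Of the others, 68.1% were retained (67.8% to 68.5%). The difference was −40.8 percentage points (−41.6 to −40). The FHT-1015 list held 48103 H3K27ac peaks, and its library was 1.05 times as deep as the DMSO library, as recovered from the peak values.

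The gap was smaller between peaks of like strength or width. Within deciles (10 equal parts) of the list by −log10 p, the weighted mean difference was −9.72 percentage points, and it was negative in 8 of 8 deciles that held at least 20 peaks of both kinds. Within deciles of width it was −14.8 (9 of 9 negative), and within cells of both strength and width it was −8.50 (15 of 15 negative). Among distal peaks alone (not within 1 kb of either end of a protein-coding gene), matched on strength, it was −7.03. Retention of peaks without factors rose from 18.9% in the weakest decile to 29.9% in the fourth, 54.8% in the sixth and 82.2% in the eighth. The corresponding shares for the other acetylated peaks were 26.9%, 41.3%, 63.7% and 91.5%. Of the 847 peaks without factors that reached a −log10 p of 10, 64.3% were retained.

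**Figure D2:**
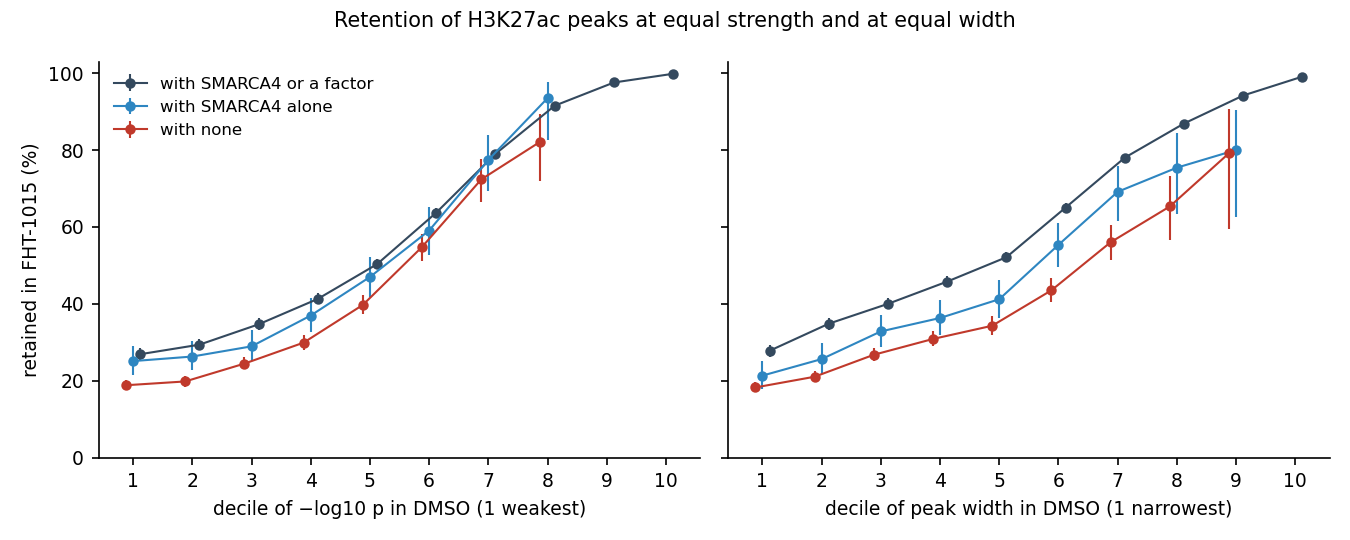
Share of DMSO H3K27ac peaks retained in FHT-1015 (vertical axis, percent, with 95% Wilson intervals) by decile of −log10 p (left) and of width (right), for peaks without SMARCA4 or factor peaks, with SMARCA4 alone and with SMARCA4 or any factor; points with under 20 peaks are left out. Retention climbs with strength and width in every group, and the peaks without factors stay below those with SMARCA4 or a factor in each decile shown.

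Sites with a single kind of DMSO peak were the nearest comparison. Retention was 31.1% of 1291 peaks with MITF alone, 34.9% of 2031 with AP-2 alone, 37.3% of 2771 with SMARCA4 alone and 51.1% of 1976 with SOX10 alone. The difference of peaks without factors from SMARCA4 alone was −9.97 percentage points (−11.9 to −8.04), and −6.09 at matched strength (8 of 8 deciles negative). From SOX10 alone it was −23.7 (−26 to −21.4), and −11.9 matched (8 of 8 negative). From AP-2 alone it was −7.56 (−9.78 to −5.39), and −2.42 matched (8 of 8 negative). From MITF alone it was −3.71 (−6.39 to −1.14) and 0.300 matched, with 5 of 7 deciles negative, so its direction did not hold at equal strength. At the far end, 81.1% of the 23782 acetylated peaks with SMARCA4 and all 3 factors were retained, and their median −log10 p was 37.4.

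**Figure D3:**
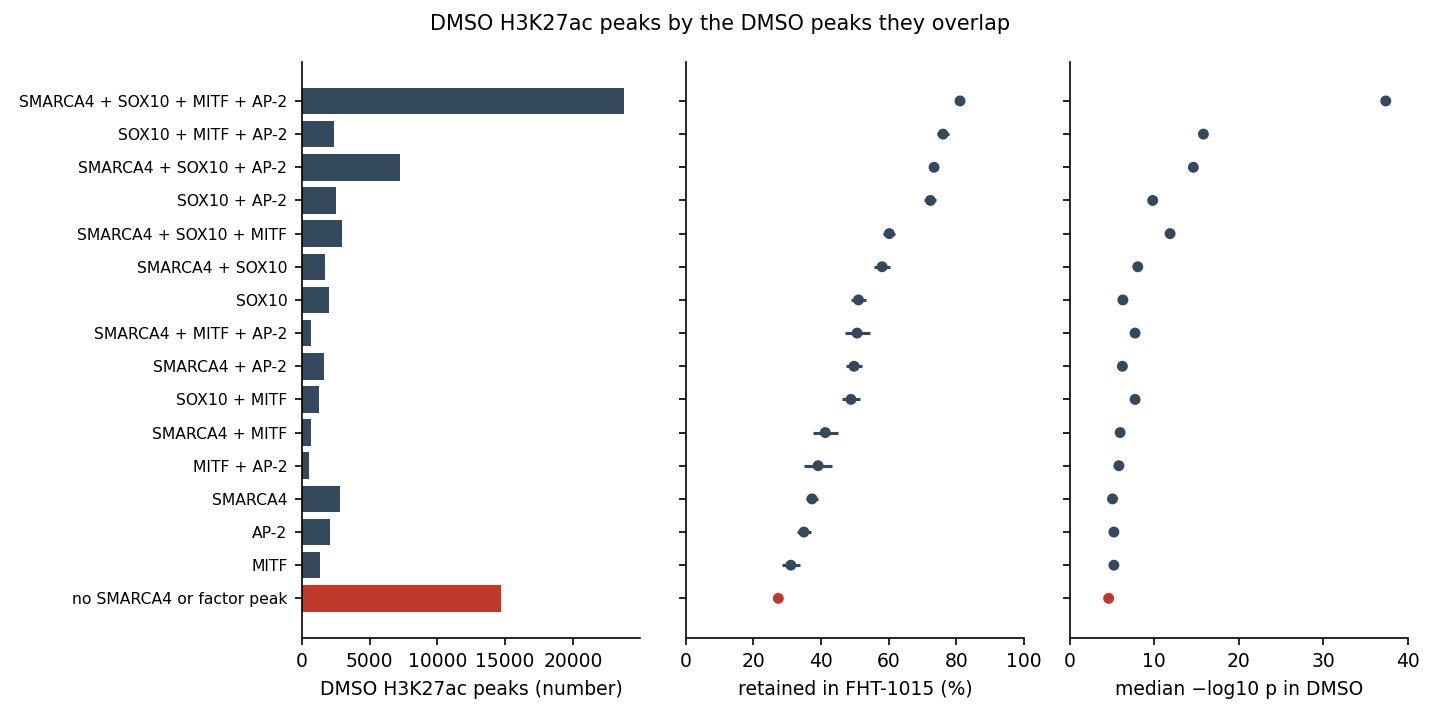
The 16 classes of DMSO H3K27ac peaks by the DMSO SMARCA4, SOX10, MITF and AP-2 peaks they overlap: number of peaks (left), share retained in FHT-1015 with 95% Wilson intervals (middle, percent) and median −log10 p (right). The class without any such peak is the second in number, with 14692 peaks, and has the lowest retained share, 27.3%, and the lowest median −log10 p, 4.63.

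Retention differed by place among the sites themselves. At gene boundaries 510 of 1161 sites kept an H3K27ac peak, 43.9% (41.1% to 46.8%). Of the distal sites, which lay over 1 kb from both ends of any coding gene, 25.9% did (25.2% to 26.7%). Both ends of a gene count as boundaries, and distal sites include some at starts inside a gene, such as the CCDC12 start. The difference, distal minus boundary, was −18.0 percentage points (−21 to −15.1), and −15.5 at matched strength (10 of 10 deciles negative). Sites with a midpoint within 1 kb of a start were retained in 369 of 588 cases, 62.8% (58.8% to 66.6%), and 20 of the 35 that covered a start were retained. The same order held among acetylated peaks with factors, of which 93.2% at boundaries and 59.0% of distal ones were retained. Sites in protein-coding genes (27.7%), in long noncoding RNA genes alone (29.0%) and outside genes (25.6%) differed by less than 4 percentage points.

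Retention of a site went with that of its neighbour. Sites with another DMSO acetylated peak within 1 kb were retained in 29.6% of cases and those without in 19.3%, a difference of 6.93 percentage points at matched strength. Where that neighbour was itself retained, 37.9% of the sites were (36.9% to 39.0%). Where it was lost, 9.27% were (8.33% to 10.3%), a matched difference of 27.1. The 2 calls are not independent, because a wide FHT-1015 peak can cover both: 42.8% of retained sites lay under an FHT-1015 peak that met another DMSO H3K27ac peak too, and for 37.6% that other peak carried factors. Of retained sites, 79.6% were covered over at least 50% of their length and 36.3% in full. Of lost sites, 47.8% had an FHT-1015 H3K27ac peak within 1 kb, and the median distance to one was 1079 bp.

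Distance from factors did not order retention in 1 direction. It was 30.6% for sites up to 100 bp from a factor peak, 31.3% from 100 to 250 bp, 24.7% from 0.5 to 1 kb and 24.3% from 1 to 2.5 kb. Of the 221 sites over 10 kb from any factor peak, 93 were retained, which is 42.1% (35.8% to 48.7%), and at matched strength they exceeded the nearer sites by 12.3 percentage points, over the 4 deciles that held enough of both. Their median −log10 p was 5.32, and 5 of them lay on unplaced contigs. Without the contigs, 41.2% of 216 were retained. Among these is a chromosome 1 site over nuclear copies of mitochondrial genes, 148230 bp from a factor peak. No list of problem regions was used, and mapping at the 221 sites was not tested.

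**Figure D4:**
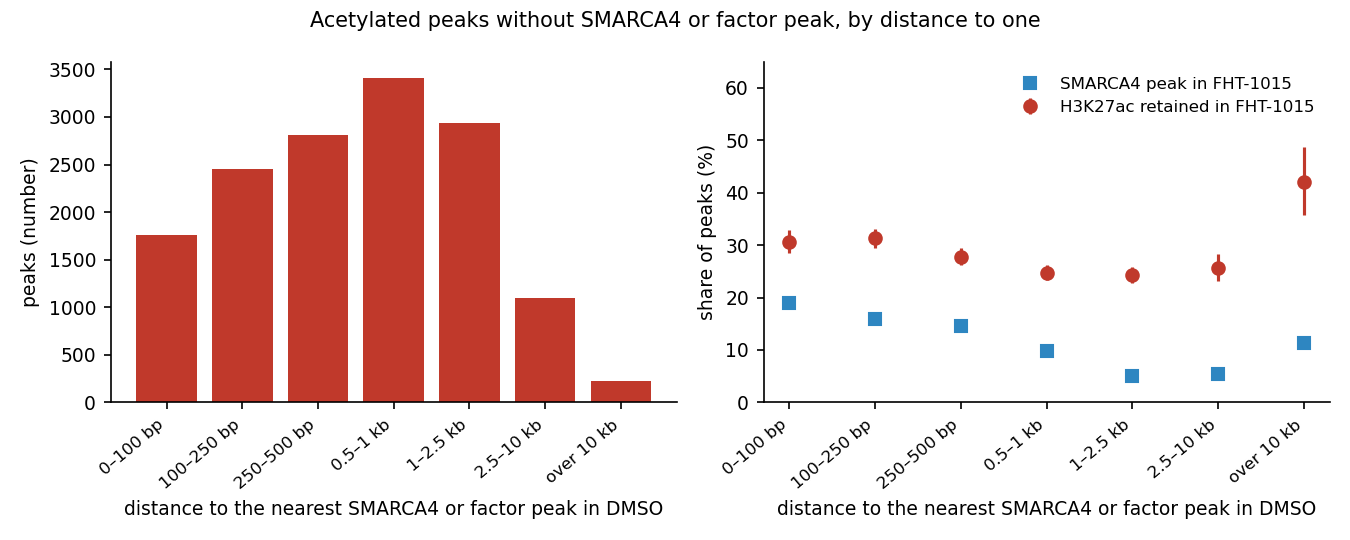
Acetylated peaks without SMARCA4 or factor peaks by distance to the nearest such DMSO peak: number of peaks (left) and share in percent (right) that kept H3K27ac in FHT-1015, with 95% Wilson intervals, and that met an FHT-1015 SMARCA4 peak. Most sites lie within 2.5 kb, the share with FHT-1015 SMARCA4 falls from 19% to 5.14% over that range, and the 221 sites over 10 kb away have the highest retained share.

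SMARCA4 and factor peaks of the FHT-1015 libraries were present at some sites that had no narrow peak of these in DMSO. Leaving out sites that met a peak of the broad DMSO SMARCA4 list kept 12927 of the 14692. The lack of a narrow DMSO peak is thus not a lack of SMARCA4, and gain of SMARCA4 or factors was not tested. Over all DMSO H3K27ac peaks, 53.4% met an FHT-1015 SMARCA4 peak, 44.8% AP-2, 31.5% MITF and 20.9% SOX10. Over the sites without DMSO factors, 1706 met SMARCA4 (11.6%, 11.1% to 12.1%), 612 met AP-2 (4.17%), 298 met MITF (2.03%) and 209 met SOX10 (1.42%). At least 1 of these was met by 2532 sites (17.2%), against 65.8% of all DMSO H3K27ac peaks. For peaks with a single kind of DMSO peak this share ran from 36.9% (SOX10 alone) to 62.4% (AP-2 alone), the kind met in DMSO included. A narrower comparison is with other acetylated peaks that also lacked the given factor in DMSO. Their shares were 30.4% for SMARCA4, 9.04% for AP-2, 9.15% for MITF and 2.52% for SOX10. At matched width the differences were −13.5, −3.33, −3.83 and −0.684 percentage points, negative in 9 of 9 deciles for the first 3 and in 8 of 9 for SOX10. Strength was not matched here. Peaks with MITF alone met FHT-1015 AP-2 (3.95%) and SOX10 (1.24%) slightly less often than sites without factors. In the other classes with a single kind of DMSO peak, each FHT-1015 share for a factor absent in DMSO was higher than at these sites. Retained sites met FHT-1015 SMARCA4 more often (18.8%) than lost sites (8.91%), and the same order held for AP-2 (5.72% and 3.58%), MITF (4.08% and 1.26%) and SOX10 (2.19% and 1.13%). Sites with any FHT-1015 factor peak were retained in 42.5% of cases and those with none in 24.2%, a matched difference of 16.1.

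The strongest site of all was the CCDC12 start (chromosome 3, 46975897 to 46976837), whose promoter is printed above. It had a −log10 p of 141, rank 3590 in the H3K27ac list, and 151 reads at its summit. It lay 122 bp from a SOX10 peak and was fully covered by an FHT-1015 peak. The second (chromosome 5, 43313818 to 43315470; −log10 p 107) lay 405 bp outside HMGCS1, an enzyme of cholesterol synthesis, and 5 bp from an MITF peak. It was retained, and in FHT-1015 it met SMARCA4 and MITF peaks. Also strong and retained were sites near CTNNBIP1, an inhibitor of β-catenin (−log10 p 75.9), and 15933 bp from TEX44 (75).

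A pair of strong sites lay in sequence of another kind. The site at chromosome 1, 628878 to 629642 (−log10 p 85.3, retained), overlapped the pseudogenes MTND1P23 and MTND2P28, nuclear copies of mitochondrial genes, and its nearest factor peak was 148230 bp away. The site at chromosome 21, 9621741 to 9622448 (−log10 p 101, retained), lay 244963 bp from the nearest annotated coding gene. Nearby, 9683955 to 9684400 held the strongest site that was lost (−log10 p 58.3). No list of problem regions was used here, and mapping at these sites was not tested.

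Other strong lost sites lay in FAM53B (−log10 p 51.1) and 42824 bp from MCHR1, the receptor for melanin-concentrating hormone (47.3). Further ones lay near SEMA4A, a semaphorin (33.3), and in POR, the electron donor of cytochrome P450 enzymes (32.4). Each of these 4 had a factor peak within 750 bp in DMSO. The site near MCHR1 had 58 reads at its summit and was lost, while that at IFIT1 had 46 and was retained. These sites also differed in place, since the one at IFIT1 covered a start, and a pair of single calls is no test.

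The widest site, of 2587 bp, lay in INPP4B, a phosphatase that acts on phosphoinositides, and was retained. The next, of 2527 bp in TBC1D7, a subunit of the tuberous sclerosis complex, was lost. The third, of 2503 bp, lay again in INPP4B and was retained. Sites of 2306 bp in METTL9, a methyltransferase, and of 2191 bp in CD44, the hyaluronan receptor, were retained. These wide sites had modest −log10 p values, from 12 to 16.8.

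Over the 35 starts, the strongest sites were the most often kept. The 11 strongest were all retained: CCDC12, IFIT1, STPG2, GATD3, ENTPD1, TTF2, GNAL, TMEM18, PTCHD4, EPHB4 and KLF7. The IFIT1 site (−log10 p 27.2) lay 5316 bp from the nearest factor peak and met an FHT-1015 SMARCA4 peak. The GATD3 site (17.8) was 47330 bp from a factor peak. The strongest start lost was that of SCN1A, a neuronal sodium channel (10.5), at 19 bp from a SOX10 peak. CD36, a fatty acid receptor (9.19), was retained. HDAC4, a histone deacetylase (5.47), and H2BC9, a histone H2B gene (3.10), were among the 15 lost.

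Genes differed widely in what they kept. Of 20056 protein-coding genes, 4488 overlapped at least 1 site, 2551 of them exactly 1, and 128 had such sites and no other acetylated peak. The 188 genes with 8 or more sites held 2647 of them, and the median share retained per gene was 23.1%, with quartiles of 6.56% and 50%. In 44 of these genes no site was retained, and in 4 every site was. Over the 183 of them with at least 5 other acetylated peaks, the share of sites retained went with the share of the other peaks retained (Pearson r 0.657, Spearman rho 0.669 across genes). This is a description, since neighbouring peaks share libraries and may lie under the same FHT-1015 peak.

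The 5 genes with most sites began with CDKAL1, which modifies transfer RNA. It held 55, of which 36 were retained, and 59 of its 66 other acetylated peaks were. INPP4B held 52 (43 retained), ARID1B, itself a subunit of BAF complexes, 45 (25 retained), MAML3, a Notch coactivator, 41 (17 retained), and MITF 40 (26 retained). The 43 retained sites of INPP4B were met by 39 separate narrow FHT-1015 peaks, the widest 6659 bp long. In MITF the 26 retained sites were met by 22 FHT-1015 peaks, the widest 9719 bp long.

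Complete retention and complete loss occurred over overlapping ranges of strength. All 18 sites in CAPZA1, an actin-capping subunit, were retained (median −log10 p 4.99, from 2.46 to 16.2), under 14 FHT-1015 peaks of up to 13152 bp. All 9 in PAX3, a neural crest factor upstream of MITF, were retained (median 6.58), as were the 8 in CD36 (median 5.21). None of 24 in XYLT1, which starts glycosaminoglycan chains, was retained, although their median −log10 p was 4.95, from 2.49 to 12.6. None of 18 in CHLSN (median 5.54) and none of 16 in TIMP2, a metalloproteinase inhibitor (median 4.95), was retained. The other acetylated peaks went the same way, with 9 of 9 retained in CAPZA1, 10 of 10 in PAX3 and 6 of 6 in CD36, against 6 of 24 in XYLT1, 10 of 20 in CHLSN and 7 of 14 in TIMP2. Widths were not alike: the median site was 388 bp in CAPZA1, 639 bp in PAX3 and 492.5 bp in CD36. It was 333 bp in XYLT1, 307.5 bp in CHLSN and 393.5 bp in TIMP2. These genes were picked as the extremes, so their shares are no test.

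**Figure D5:**
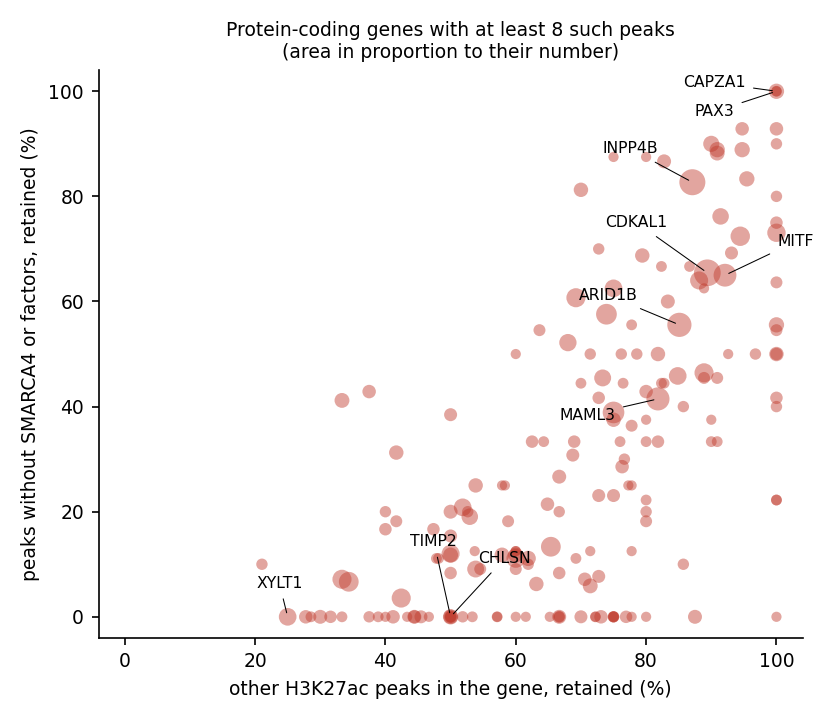
Share of acetylated peaks without SMARCA4 or factors that were retained in FHT-1015 (vertical axis, percent) against the share of the other acetylated peaks of the same gene (horizontal axis, percent), for the 183 protein-coding genes with at least 8 of the former and 5 of the latter; point area is in proportion to the number of the former. The points lie mostly below equality, from genes such as XYLT1 with 0 of 24 to CAPZA1 with 18 of 18.

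On the numbered chromosomes and X, the share of acetylated peaks without factors ran from 16.8% on chromosome 8 to 25.4% on chromosome 17. On the same chromosomes, the share of these sites retained ran from 15.7% on chromosome 20 and 16.2% on chromosome 22 to 40.4% on chromosome X (36.1% to 44.9%) and 42.4% on chromosome 4. Without the sites of INPP4B, chromosome 4 stood at 39.1% (35.3% to 42.9%).

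Pigment cell genes checked the labelled cell type, and their sites were followed one by one. Each of 8 such genes had at least 1 acetylated peak with factors in or within 1 kb of it, and 7 had sites without factors. Of markers of other cells, PECAM1 (endothelium), KRT5 (squamous epithelium), ALB (liver) and INS (pancreatic islets) had no acetylated peak, and PTPRC (leukocytes) had 1 site without factors and 3 other peaks. MITF accounted for 40 of 53 sites. In its gene body, sites spanned a −log10 p from 2.54 to 12.2 and 7 to 26 summit reads. The strongest MITF site (chromosome 3, 69811629 to 69812131) was fully covered in FHT-1015. Outside MITF, 1 of 13 sites was retained, against 15 of 20 acetylated peaks with factors at the same 7 genes. Among all sites without factors 27.3% were retained. Strength was not matched here, 13 sites are few, and the difference was not tested.

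The single site kept outside MITF lay in TFAP2A, the gene of an AP-2 factor (−log10 p 6.50, 44.3% covered). All 5 sites in MLANA, a melanosome antigen, were lost, the strongest with a −log10 p of 12.1 at 549 bp from a SOX10 peak, and this stretch also belongs to the gene BRD10. The 3 sites in PMEL, which forms the fibrils of melanosomes, were lost, with −log10 p from 2.61 to 5.34. Both sites in DCT, a melanin enzyme, were lost (6.80 and 6.95), as were the 1 in TYR (4.75) and the 1 in SOX10 (6.11), which POLR2F also spans. TYRP1 had no site without factors.

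Across gene families, counted within 1 kb of the gene, 24.2% of all coding genes had at least 1 site and 28.6% of the sites at coding genes were retained. Of 85 cytosolic ribosomal protein genes, 34 had sites (40%), and 33 of 60 of these sites were retained. Of 66 protocadherin genes, adhesion molecules in shared clusters, 41 had sites, and 20 of 31 sites were retained, some of which lay in more than 1 gene. Solute carriers had 26 of 159 sites retained, zinc finger genes 47 of 126, proteasome subunits 13 of 36, mitochondrial ribosomal proteins 8 of 23, collagens 9 of 25 and respiratory complex I 5 of 24. Histone genes had 4 of 11 retained, keratins 0 of 2 and HOX genes 1 of 1. Olfactory receptors, silent in most tissues, had sites at 3 genes (0.765%), and 0 of 2 were retained. Families differ in gene length and number, and no family was tested.

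Among boundary sites of these families, those near RPL19 (−log10 p 11.9), MRPL17 (9.23), PSMD11 (10.4), ZNF837 (26.5), ZNF440 (25.5) and SLC23A3 (25.3) were retained. Those near RPS14 (11.6), PSMB6 (3.43), NDUFS3 (6.63) and OR2H1 (4.11) were lost. Sites that touched or nearly touched a factor peak included those in IRX6, a homeobox gene (−log10 p 23, next to MITF), near DAB2, an endocytic adaptor (21, next to SOX10), near GDF11, a growth factor (10.3, next to AP-2), and in COPS7B, a signalosome subunit (10.0, next to AP-2). Each of these 4 had a gap of 0 bp, was retained and met an FHT-1015 factor peak. They were strong for such sites and do not stand for them. The 925 sites at most 50 bp from a factor peak had a median −log10 p of 4.73, and 29.6% were retained. On the numbered chromosomes and X, the most distant site, on chromosome 15 at 17503801 to 17504267, was 422132 bp from a factor peak and was retained. It lay 2791385 bp from the nearest annotated coding gene, and mapping there was not tested.

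Of 1554 microRNA hairpins, 10 lay under these sites and 174 under other acetylated peaks, while these sites held 7.19% of all acetylated bases. Of the 10 sites, that at MIR6748 was retained and the other 9 were lost. Among all sites without factors 27.3% were retained, and 10 sites are too few to tell apart from that share. MIR21, within the span of VMP1, lay under a lost site (chromosome 17, 59840970 to 59841334; −log10 p 2.90, 12 summit reads), 400 bp from a factor peak. MIR221 lay under another (chromosome X, 45746098 to 45746300; −log10 p 5.11, 10 summit reads), 2166 bp from one. Their mature forms, from RefSeq, are shown because both are widely studied in melanoma. The mature miR-21-5p lies at chr17:59841273-59841294 on the plus strand and miR-221-3p at chrX:45746180-45746202 on the minus strand, and capitals mark the seed, bases 2 to 8, which pairs with target messages. Their seeds differ.
hsa-miR-21-5p: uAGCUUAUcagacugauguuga
hsa-miR-221-3p: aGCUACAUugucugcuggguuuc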

How the data were processed

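ChIP-seq peak lists of 92-1 cells were used, 1 narrow list for each of 10 immunoprecipitated libraries and the 2 H3K27ac and DMSO SMARCA4 broad lists; the FHT-1015 SMARCA4 broad list and the input library were not used here. Reads were processed with BWA, SAMtools, Picard and MACS2 on hg38, per the submitters' processing notes; settings were not given in the sources used here. Fold enrichment (a ratio) and each peak's −log10 p and −log10 q were deposited by the authors and used only within a list. The score deposited by the authors was −log10 p (narrow) or −log10 q (broad) times 10, truncated, and was not used further.

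Overlap meant at least 1 bp, and peaks with the same coordinates were counted once (68093 rows, 68093 unique). Summit reads were recovered from fold and p with MACS2's Poisson form and came out whole within 0.002 for 100% of the peaks solved. Genes (20056 coding) were RefSeq GRCh38.p14; 22199 starts of 15843 coding genes had a promoter window, with none on chromosome 8. Matched differences were averaged, each bin weighted by the product of its 2 peak numbers divided by their sum, over bins that held at least 20 peaks of both. Bins were deciles of the whole DMSO H3K27ac list (5 by 5 parts for strength and width together) or, between groups of sites without factors, deciles of those sites by −log10 p. Peaks and genes were named by rule: the 6 strongest retained and lost, 5 widest, 4 nearest and farthest from factors, the 5 genes with most sites, the 3 genes with the highest and lowest retained share, pigment genes, and at most 2 boundary peaks per family. Of these, 1 peak is not reported here. The members, rule and lists were chosen with earlier results of these data known. Intervals are 95% Wilson. Computations used Python 3.11.15, pandas 2.3.3, numpy 2.4.6 and scipy 1.17.1, and the overlap functions were tested on simulated data.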

Additional observations from a re-analysis of the deposited data

How the results depend on the processing

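Of 27 alternatives, 22 moved the value outside the interval of the main result or, for numbers of sites, by more than 1.5 times. The other 5 did not. Numbers of sites and shares cannot change sign, so only the differences could turn a direction, and those among the 27 all stayed negative. The difference from MITF alone was not among the 27, and it went from −3.71 to 0.300 percentage points when matched on strength. Requiring 1 kb between site and factor peak left 4262 sites in place of 14692, while the other 3 choices of members stayed within 1.5 times. With the broad DMSO SMARCA4 list used as well, 12927 sites remained. The retained share was 21.8% with at least 50% coverage, 22.3% with the summit inside, 28.2% for sites with q under 0.05, 33.9% against the broad list and 25.6% with 1 kb to factors. The difference from other acetylated peaks was −9.72 matched on strength, −14.8 on width, −8.50 on both, −35.3 at 50% coverage and −36.0 with 1 kb to factors; 2 alternatives chosen after seeing the data gave −7.03 (distal peaks) and −12.1 (peaks with a neighbour within 1 kb). The boundary share was 18.7% within 2.5 kb and 13.4% with all annotated genes, and distal minus boundary was −9.00 with 2.5 kb. With factor peaks of q under 0.05, FHT-1015 shares were 9.13% (SMARCA4), 0.551% (SOX10), 1.33% (MITF) and 3.83% (AP-2). An acetylated neighbour stood within 1 kb of 78.0% and within 10 kb of 93.0%. No paired analysis was possible because each antibody had 1 library per condition. The cause of these shifts was not tested. The median of 13 summit reads limits what a single call can show.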
